A study of Rattus norvegicus with 6 samples.

Results

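The comparison described here sets rats that received both alcohol and a fracture against rats that received neither, as the difference of alcohol-fed fracture minus pair-fed no fracture. It was read from 5 of the 6 two-colour pairings of the series, namely the pairing of both groups on the same arrays and the 4 pairings that join them in 2 steps. One path of 2 steps runs through the pair-fed fracture group and the other through the alcohol-fed no fracture group. The pairing of pair-fed fracture with alcohol-fed no fracture joins neither group and was left out.

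The animals were Sprague-Dawley rats, weaned and 4 weeks old at the start, kept for 4 weeks on a Lieber-DeCarli liquid diet. In the alcohol-fed groups the diet held ethanol, and the pair-fed groups, which are the controls for calorie intake, received it without ethanol. Fractured rats had a steel pin placed in the marrow canal and a closed break of the mid-shaft of the right hind-limb bone, and all tissue was taken 3 days later from the right hind-limb. The unfractured tissue is labelled a non-fracture callus, and no label says whether those limbs were pinned. Each of the 4 groups had 3 numbered samples, and each number was used on 1 pairing only, so the direct pairing and both paths share no numbered sample. The labels do not say whether a number stands for 1 rat or a pool, so the spread behind each p-value may be technical.

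Fracture healing opens with a haematoma and an inflammatory stage, in which neutrophils and macrophages clear debris and release cytokines before mesenchymal progenitors form cartilage and bone. The marrow opened by the break makes red cells, granulocytes and B lymphocytes, and the limb shaft is wrapped in skeletal muscle, so that RNA of a milled fracture region can hold all of these tissues. Chronic ethanol intake is known to slow bone repair and to disturb marrow blood formation and muscle protein turnover. In such bulk samples fewer cells of a type and less RNA per cell cannot be told apart. The deposited values are ratios without signal levels, so the labelled tissue could not be checked for the presence or absence of its defining markers.

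All values are log ratios of unstated base, and no fold is quoted. Each ratio is read as the first-named over the second-named group of its title, an assumption that the dyes do not settle. Positive values therefore lie towards alcohol plus fracture only on this reading. If every column ran the other way all signs would turn together, while counts and sizes would stay. Across 23549 rows (12589 named genes, and probes without a symbol), the direct pairing had a Pearson correlation of 0.347 with the path through pair-fed fracture and of 0.483 with the path through alcohol-fed no fracture, and the 2 paths of 0.435 with each other. Rows are not independent replicates, and the columns share the array platform and the labelling. Among the 16 sign patterns that the 5 columns can take, the one of the titles ranked 3 for the share of the sum of squares left unexplained by group differences (0.266), and the lowest share (0.229) came with the columns that hold fracture on the pair-fed diet and alcohol in unfractured rats both turned against the others. The left-out pairing had a correlation of -0.316 with the values the 5 others predict for it, below 0, and its own direction is not settled.

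Each fitted value weighs the direct pairing by 0.5 and each path by 0.25, and is given ± its standard error. Where 3 readings of a gene are listed, they are the direct pairing, the path through pair-fed fracture and the path through alcohol-fed no fracture, in this order. The standard deviation over rows was 0.395 for the fitted values, 0.364 on the direct pairing, 0.614 on the path through pair-fed fracture and 0.67 on the path through alcohol-fed no fracture. In the plot of paths against the direct pairing the bulk of rows lies near 0 and the leading genes at both ends.

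**Figure D1:**
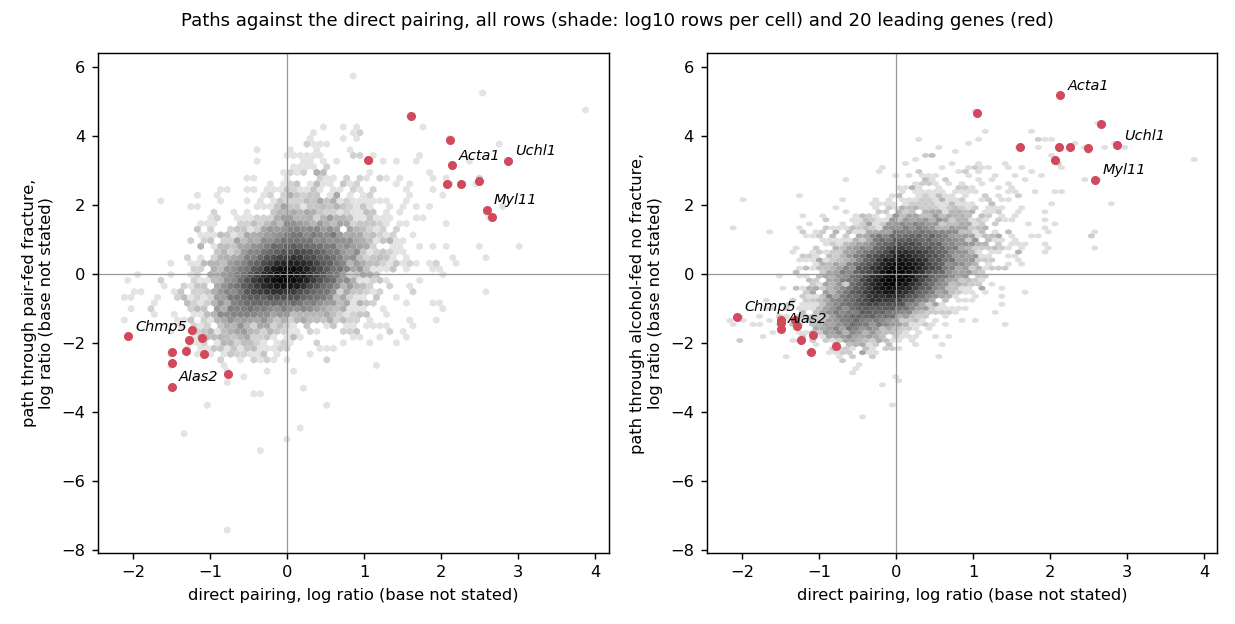
Each panel plots the log ratio of alcohol-fed fracture minus pair-fed no fracture on the direct pairing (x axis) against the same difference on 1 of the 2 paths (y axis), for 23549 rows shaded by the log10 number of rows per cell. Red points are the 20 leading genes; 10 of them lie above 0 and 10 below 0 on both axes of both panels, as their choice required.

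The named genes that passed on the positive side of the combined difference were Uchl1, a ubiquitin hydrolase abundant in neurons, and Myl11, the regulatory light chain of fast-twitch skeletal muscle myosin. Of the 10 leading positive genes Uchl1 had the largest fitted value and Myl11 the smallest. Both were among 7 rows that passed the threshold, a limma adjusted p under 0.05 over all rows, and all 7 were positive. The background share of rows called was 0.0297% in either direction, and no negative row passed by limma, although 2091 negative and 1738 positive rows had an unadjusted p under 0.05. The other 5 called rows are probes that carry no symbol in the platform annotation, among them R005696_01, which had the largest fitted value of the comparison at 3.97 ± 0.27.

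Uchl1 was at 2.87 on the direct pairing. Its single steps were 0.66 for fracture on the pair-fed diet, 2.63 for alcohol in fractured rats, 2.27 for fracture on the alcohol diet and 1.47 for alcohol in unfractured rats. All 5 columns thus lay on the positive side, and its fitted value was 3.19 ± 0.21 (limma adjusted p = 0.0365).

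Myl11 was at 2.59 on the direct pairing. The corresponding steps were 0.83, 1.04, 1.59 and 1.16, again with every column positive and with a narrower range than for Uchl1. The fitted value was 2.45 ± 0.20 (limma adjusted p = 0.0499), just inside the threshold. With the 2 columns named above turned, no row passed, and Uchl1 stood at 2.12 and Myl11 at 1.45. The call of 7 rows became 0 when all 6 pairings were fitted with the signs of the titles, 14 when the sixth column was turned, 645 without the direct pairing, 43 when either column of the path through pair-fed fracture was left out and 0 when either column of the path through alcohol-fed no fracture was left out.

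Behind these genes stood 8 more leading positive genes that did not pass, with limma adjusted p from 0.0547 to 0.147. Among them Acta1, the actin of the skeletal muscle thin filament, was at 3.16 ± 0.52 and Mustn1, a small nuclear protein expressed in muscle and skeletal tissue, at 2.95 ± 0.37. Muscle glycogen phosphorylase Pygm was at 2.84 ± 0.42. The fast troponin I gene Tnni2, whose product holds the thin filament off in the absence of calcium, was at 2.71 ± 0.28. The muscle form of a cytochrome oxidase subunit, Cox6a2, was at 2.52 ± 0.25.

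Mrpl37, a protein of the large mitochondrial ribosomal subunit, came closest to the threshold at 2.84 ± 0.25 (limma adjusted p = 0.0547), with 2.49 on the direct pairing and 2.72 and 3.67 on the paths through pair-fed fracture and through alcohol-fed no fracture. The remaining genes, Or6z1 at 2.88 ± 0.54 and Or4k52 at 2.53 ± 0.64, are annotated as olfactory receptors. Their error was wide because the direct pairing gave 1.61 for Or6z1 and 1.05 for Or4k52, well under both paths. Acta1 spread similarly, from 2.13 on the direct pairing through 3.16 to 5.20 on the path through alcohol-fed no fracture.

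**Figure D2:**
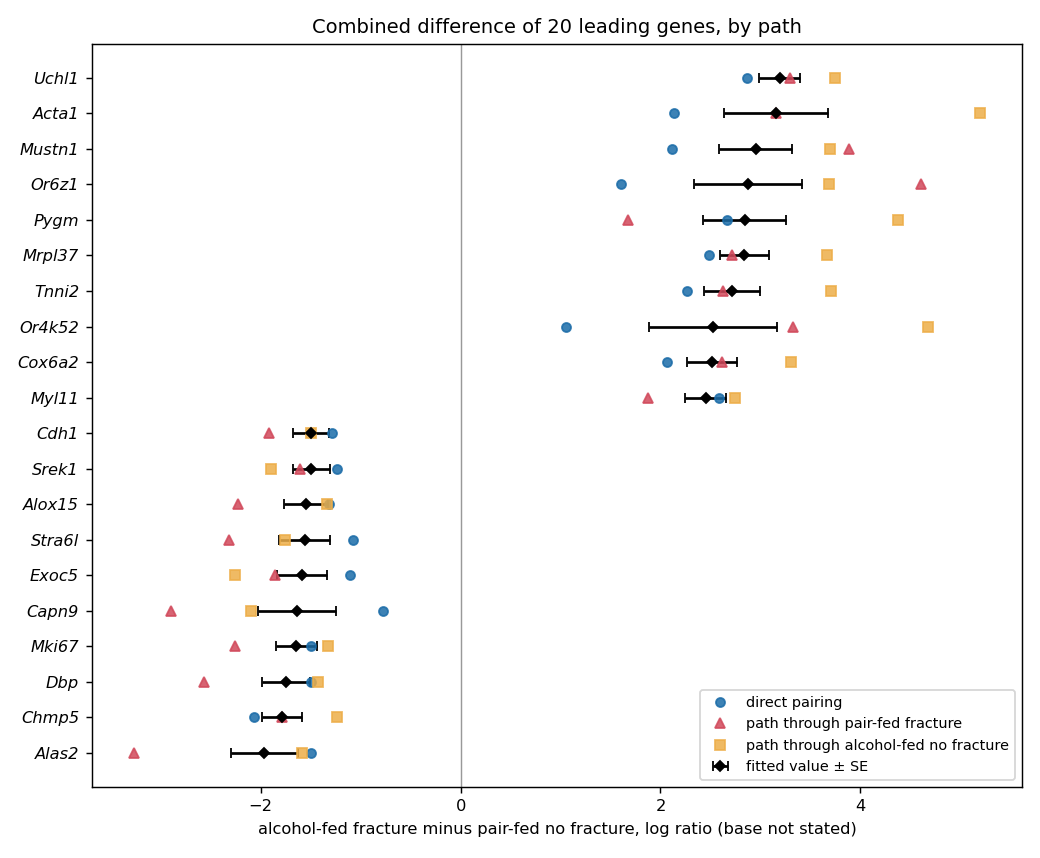
For the 10 leading positive and 10 leading negative genes (y axis), the x axis gives the log ratio of alcohol-fed fracture minus pair-fed no fracture, with coloured marks for the direct pairing and both paths and a black mark for the fitted value ± SE. All 3 marks of a gene share its sign, as the choice required; for the positive genes the direct pairing ran from 1.05 to 2.87 and the path through alcohol-fed no fracture from 2.75 to 5.20.

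Because muscle genes make up many of the leading positives, the promoter windows of both called genes are shown beside those of Acta1, the skeletal muscle actin gene, and Alas2, the leading negative gene. The sequences are those of RefSeq on GRCr8, from 250 bases before to 50 bases after the annotated start, written along the gene's strand. They belong to Myl11 (chr1:191260039-191260338, plus strand), Uchl1 (chr14:41849368-41849667, minus strand), Acta1 (chr19:68784145-68784444, minus strand) and Alas2 (chrX:22895200-22895499, plus strand). Capitals mark, on either strand, the palindromic E-box CAGCTG, which myogenic factors can bind, the CArG box bound by serum response factor, the TATA box TATAAA, and the sequence AGATAA, which GATA factors can bind.
Myl11: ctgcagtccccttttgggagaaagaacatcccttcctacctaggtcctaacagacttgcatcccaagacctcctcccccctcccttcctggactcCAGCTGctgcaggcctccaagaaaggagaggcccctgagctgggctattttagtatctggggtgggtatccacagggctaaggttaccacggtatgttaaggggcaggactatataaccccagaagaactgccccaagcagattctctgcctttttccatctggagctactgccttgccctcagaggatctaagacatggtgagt
Uchl1: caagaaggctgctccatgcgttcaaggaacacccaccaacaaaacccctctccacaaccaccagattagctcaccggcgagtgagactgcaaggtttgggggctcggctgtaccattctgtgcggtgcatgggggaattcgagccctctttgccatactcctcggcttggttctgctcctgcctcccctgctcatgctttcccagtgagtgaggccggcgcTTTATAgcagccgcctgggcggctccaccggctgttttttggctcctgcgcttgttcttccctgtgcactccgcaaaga
Acta1: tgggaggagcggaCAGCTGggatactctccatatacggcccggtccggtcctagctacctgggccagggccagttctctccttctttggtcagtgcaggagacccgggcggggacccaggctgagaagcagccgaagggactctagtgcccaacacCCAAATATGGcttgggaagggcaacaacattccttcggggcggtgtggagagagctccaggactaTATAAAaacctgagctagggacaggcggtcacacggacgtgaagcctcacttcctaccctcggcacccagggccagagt
Alas2: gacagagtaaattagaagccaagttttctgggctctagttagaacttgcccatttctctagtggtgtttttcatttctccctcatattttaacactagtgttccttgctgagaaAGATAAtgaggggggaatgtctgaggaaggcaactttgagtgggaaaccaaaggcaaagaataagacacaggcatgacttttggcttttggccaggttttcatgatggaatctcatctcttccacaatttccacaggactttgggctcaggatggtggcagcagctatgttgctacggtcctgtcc
The E-box was found in 6 of the 10 leading positive promoters and in 2 of the 8 leading negative promoters with a sequence, against 15.1% of 33469 rat promoters of this length. Myl11 held it with its first base at -155 from the start, Acta1 at -237, and Pygm at -181 and -32. The other positive promoters with it were Cox6a2 at -107, the olfactory receptor gene Or6z1 at -168 and Mustn1 at 4, after the start. The muscle gene Tnni2 had no E-box in its window. The sequence TATAAA was present on either strand in 3 of 10 positive and 0 of 8 negative promoters (14.2% of all). It lay along the gene's strand, as a TATA box is read, in Acta1 only. Only this exact sequence was searched, so similar ones, such as tatataa in the Myl11 window, were not counted. In Tnni2 and Uchl1 it lay on the opposite strand and is written as TTTATA. The CArG box stood in Acta1 alone of these 18 promoters (1.64% of all), and AGATAA in 1 of 10 positive and 2 of 8 negative promoters (11.6% of all), Alas2 included. Each motif was searched on both strands, a palindrome counted once, and in these 18 promoters no match of one motif overlapped that of another. These matches describe letters in a window and show no binding.

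Lower values were led by Alas2, the first enzyme of haem synthesis in red cell precursors, Chmp5, a subunit of the endosomal sorting machinery, Dbp, a transcription factor that oscillates with the circadian clock, and Mki67, the nuclear antigen of dividing cells. None of the 10 leading negative genes passed, with limma adjusted p from 0.0897 to 0.134. Alas2 was at -1.50 on the direct pairing and at -3.27 and -1.58 on the paths, for a fitted value of -1.96 ± 0.34. Chmp5 gave -2.07, -1.79 and -1.23 in the same order, and -1.79 ± 0.20 in the fit. Dbp was at -1.75 ± 0.24, from -1.50, -2.57 and -1.43. Mki67 was at -1.64 ± 0.21, from -1.50, -2.26 and -1.33. For all 4 genes the 3 readings, which come from separate samples, lay on the negative side, as the choice required.

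The other leading negatives were smaller. They included Cdh1, the cadherin of epithelial cells, at -1.49 ± 0.18, and Alox15, a lipoxygenase of eosinophils and macrophages, at -1.55 ± 0.22. Srek1, a regulator of splicing, was at -1.49 ± 0.18 and Exoc5, a subunit of the exocyst that tethers secretory vesicles, at -1.59 ± 0.25. The calcium protease Capn9 was at -1.64 ± 0.39 and Stra6l, a membrane transporter of retinol, at -1.56 ± 0.26. Capn9 had the widest error of these, with -0.78 on the direct pairing against -2.90 and -2.09 on the paths.

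The values of these genes on the single steps are a description, since the fitted values and like signs that chose the genes were built from the same columns. The columns also differ in width, with standard deviations over all probes of 0.523 for alcohol in fractured rats and 0.572 for fracture on the alcohol diet, against 0.252 for fracture on the pair-fed diet and 0.344 for alcohol in unfractured rats. For the 10 leading positive genes all 4 steps were positive in every gene. Fracture on the pair-fed diet gave a median of 0.78 (0.03 to 1.02), alcohol in unfractured rats 1.65 (0.70 to 2.81), alcohol in fractured rats 2.02 (1.04 to 3.63) and fracture on the alcohol diet 2.29 (0.99 to 3.00). The 10 leading negative genes were negative on both steps that hold alcohol-fed fracture samples, with a median of -1.69 for alcohol in fractured rats and of -1.60 for fracture on the alcohol diet. On the steps without such samples their medians were -0.22 for fracture on the pair-fed diet and -0.07 for alcohol in unfractured rats, where 5 of the 10 were positive. These last 2 columns are those whose turning left the least unexplained, and with them turned the steps of every leading gene on both would take the opposite sign.

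**Figure D3:**
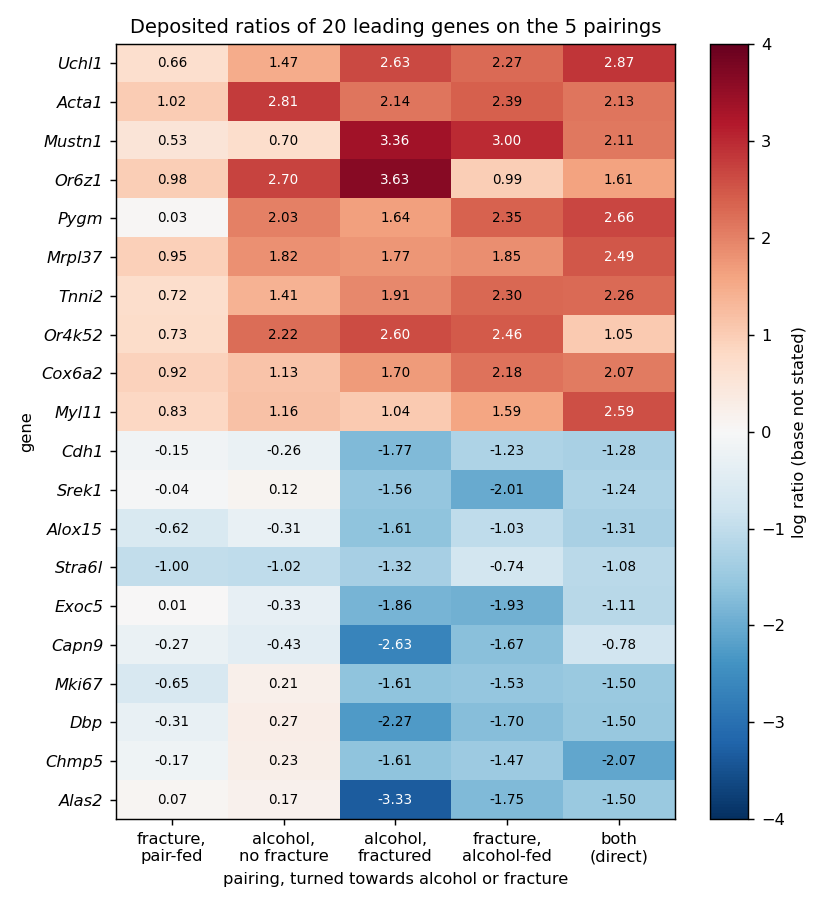
Deposited log ratios of the 20 leading genes (rows) on the 5 pairings (columns), each turned so that positive values, in red, lie towards alcohol or fracture, with the colour scale from -4 to 4. The positive genes are red in all columns, while the negative genes go no lower than -1.02 in the left pair of columns and reach -3.33 in the column of alcohol in fractured rats.

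Whether the combined difference departs from fracture alone plus alcohol alone was tested as a contrast in the same fit, by which no row passed (limma, smallest adjusted p = 0.116; 2725 rows had an unadjusted p under 0.05). An unadjusted p under 0.01 for the departure was found in 4.19% of all rows, 0.794% above and 3.39% below the sum, and in 2 of the 10 leading positive and 7 of the 10 leading negative genes, whose choice used the same samples. With the same 2 columns turned, 24 rows passed the adjusted threshold, 22 above and 2 below the sum. The split at the unadjusted mark was not computed for that setting. Mustn1 lay 2.57 ± 0.52 above the sum and Alas2 2.66 ± 0.48 below it on the scale of log ratios, and neither passed (limma adjusted p = 0.149 and 0.126). Myl11 and Acta1 had departures of 0.32 ± 0.28 and 0.35 ± 0.74, smaller than or close to their errors. Uchl1 departed by 1.38 ± 0.29 (limma adjusted p = 0.156). Stra6l, at -0.02 ± 0.36, was the leading negative gene nearest to the plain sum. The combined difference differs from that of alcohol in fractured rats by the effect of fracture on the pair-fed diet, and from that of fracture on the alcohol diet by the effect of alcohol in unfractured rats. By limma 0 rows passed for either of these effects, where 437 and 1236 rows had an unadjusted p under 0.05.

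Gene lists were described by their counts and medians, beside a median of -0.01 over all rows. Myl11 is the one member that passed the adjusted threshold, so an unadjusted limma p under 0.01 is used as a coarser mark. It takes 6.01% of all rows, 2.63% on the positive and 3.38% on the negative side. Of 358 measured list members, 26 were marked as positive and 23 as negative. A further mark is the same sign on the direct pairing and both paths, which 42.1% of all rows had, 19.1% as positive and 23% as negative.

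Sarcomere genes, the motor and scaffold proteins of striated muscle, lay highest of the 23 lists: 23 of 25 members on the arrays were positive, and their median was 0.69. Of the 25, 9 were marked as positive and 0 as negative, and 17 of 25 were positive on the direct pairing and both paths. Mybpc2, the fast isoform of myosin-binding protein C, was at 1.92 ± 0.18, with 1.80, 1.69 and 2.39 on the 3 readings, and joined Myl11 and Tnni2 as the members with the smallest p. Actn2, the alpha-actinin of the Z disc, was at 2.18 ± 0.34 and was named after its value was seen. The list was not uniform. The further members given here were named after their values were seen. Among slow-fibre members, Tnnt1 (troponin T) was at 2.13 ± 0.39, Myl3 (light chain) at 1.49 ± 0.45, Myh7 (myosin) at 1.35 ± 0.33 and Tnnc1 (troponin C) at 0.76 ± 0.24. The 3 readings of Myl3 did not agree in sign, at 1.72, -0.21 and 2.74, and those of Myh7 were 2.00, 0.20 and 1.22. The troponin I gene Tnni1 was at 0.13 ± 0.15 and the myosin-binding protein gene Mybpc1 at 0.18 ± 0.15. Fast-fibre members differed as well, with the myosin gene Myh1 at 0.37 ± 0.22, the troponin C gene Tnnc2 at 0.36 ± 0.21 and the light chain Myl1 at -0.65. The embryonic myosin Myh3 was at -0.03. The list's median was positive on all 5 columns, at 0.13 for fracture on the pair-fed diet, 0.45 for alcohol in unfractured rats, 0.56 for alcohol in fractured rats, 0.62 for fracture on the alcohol diet and 0.34 on the direct pairing. How much muscle entered each sample was not measured, and its part in the leading positive values was not tested.

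Enzymes and calcium handling proteins of muscle centred on 0.46, with 10 of 14 members above 0, 5 marked as positive and 1 as negative. The muscle creatine kinase Ckm, which buffers ATP during contraction, was at 2.36 ± 0.35 beside Cox6a2 and Pygm. The marked negative member was Eno3, the muscle enolase of glycolysis, at -0.90 ± 0.21, named after its value was seen. Among myogenic regulators and stress genes the median was 0.07, with 2 of 10 members marked as positive and 1 as negative. Ankrd1, a stretch-responsive protein of the I band, was at 1.75 ± 0.29 beside Mustn1, while its relative Ankrd2 was at -0.84 ± 0.19.

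Erythroid genes split. Their median was -0.04, near that of all rows, but 6 of 22 members were marked as negative and 1 as positive. The mitochondrial iron importer Slc25a37 was at -1.32 ± 0.17, the Kell blood group protein Kel at -1.34 ± 0.19 and the alpha-globin chaperone Ahsp at -1.43 ± 0.21, and none passed (limma adjusted p = 0.0897 each). Ahsp gave -1.08 on the direct pairing and -1.94 and -1.64 on the paths, and its step for alcohol in unfractured rats was 0.15. Its deposited step for fracture on the pair-fed diet was 0, so that path equals its step for alcohol in fractured rats. The marked positive member was Ank1, which anchors the red cell membrane to its skeleton and also has a muscle form, at 1.51 ± 0.30 (named after its value was seen). The other marked negative members were 3 enzymes of haem synthesis, namely Alas2, Urod at -1.03 ± 0.20 and Fech, which inserts the iron, at -0.98 ± 0.19. Of the transcription factors that drive red cell genes, Klf1 was at 0.34 and Gata1 at -0.05, and the membrane protein Epb42 at 1.48 ± 0.58.

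Cell cycle genes centred on -0.23, with 7 of 20 above 0. Of these 20, 4 were marked as negative and 0 as positive, and 10 were negative on the direct pairing and both paths. Beside Mki67, the mitotic activator Cdc20 was at -1.16 ± 0.15, with -1.22, -1.17 and -1.05 on the 3 readings, and the replication helicase subunit Mcm7 was at -1.07 ± 0.17. Other members, named after their values were seen, did not follow. Top2a was at 0.80 ± 0.38, on readings that did not agree in sign. The helicase subunits Mcm2, Mcm4, Mcm5 and Mcm6 were at 0.06, -0.17, 0.20 and -0.35. The 3 readings of Cdc20 lay close together, which its choice by small p favoured. Its step for alcohol in fractured rats was -1.13 and that for fracture on the alcohol diet -0.85, against -0.03 for fracture on the pair-fed diet and -0.20 for alcohol in unfractured rats.

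Neutrophil genes lay lowest of the 23 lists by their median of -0.35, with 3 of 13 above 0. S100a9, a subunit of the calprotectin of neutrophils, was at -1.12 ± 0.19 and the granule peroxidase Mpo at -1.38 ± 0.36, and both were marked as negative. Mpo was at -0.57 on the direct pairing against -2.39 and -1.98 on the paths, and ran from -2.19 to -1.04 when 1 pairing was left out. Csf3r, the receptor for granulocyte colony-stimulating factor, was at -0.46 ± 0.17. For macrophage genes the median was 0.03 with no marked member among 16, and 9 of them lay above 0. The complement subunit C1qb was at -0.58 ± 0.18, while the subunits C1qa and C1qc were at 0.03 ± 0.16 and 0.04 ± 0.15. The endotoxin co-receptor Cd14 was at 0.56 ± 0.21 and the haemoglobin scavenger receptor Cd163 at -0.61 ± 0.23. The readings of Cd163 did not agree in sign, with 0.08 on the path through alcohol-fed no fracture.

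Cytokines and chemokines lay on both sides, with a median of 0.09, 3 of 27 members marked as positive and 1 as negative. The monocyte attractant Ccl7 was at 2.11 ± 0.28. It gave 1.53 on the direct pairing and 2.49 and 2.90 on the paths, and its step for alcohol in unfractured rats was 0.0016. Ccl3 was at 1.65 ± 0.36 and its neighbour in the chemokine family, Ccl4, at -0.90 ± 0.18. Il18, a cytokine released by inflammasomes, was at 1.79 ± 0.42 and was named after its value was seen. None of these passed, with limma adjusted p from 0.0897 to 0.128. The chemokine Ccl2 was at -0.24 ± 0.23, on readings that did not agree in sign.

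Lymphocyte genes had medians of -0.12 for 7 B cell members and 0.01 for 15 members of T and NK cells, with 2 members marked as negative in each and 0 as positive. Above 0 were 2 of the 7 and 8 of the 15. Cd72, a receptor that restrains B cell signalling, was at -1.40 ± 0.15 with -1.34, -1.37 and -1.56 on the 3 readings. It was named for its small p, a choice that favours readings lying close together. The signalling chain Cd79b was at -0.73 ± 0.19 and Cd22 at -0.41 ± 0.19. Cd22 ran from -0.53 to -0.25 when 1 pairing was left out. The other measured B cell members, Ms4a1, Blk, Rag2 and Cd74, were at -0.06, 0.06, 0.03 and -0.12. Perforin Prf1, the pore protein of cytotoxic cells, was at -1.37 ± 0.32 and the T cell receptor chain Cd3g at -0.74 ± 0.20, while Cd5 was at 0.61 ± 0.26. The granzymes Gzma, Gzmb and Gzmk were at 0.43 ± 0.32, 0.19 ± 0.18 and 0.19 ± 0.16. The chains Cd3d and Cd3e were at 0.14 ± 0.17 and -0.24 ± 0.21.

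Osteoblast and bone matrix genes had a median of -0.10 and no marked member among 15. Col1a2, a chain of type I collagen, was at -0.61 ± 0.17, osteopontin Spp1 at 0.53 ± 0.20 and the osteoblast factor Sp7 at 0.33 ± 0.18. Of 12 chondrocyte genes 4 were above 0 and 5 were negative on all 3 readings, and their median was -0.19, with the cartilage matrix protein Matn1 marked as negative at -0.84 ± 0.15, Sox6, a factor of chondrocyte differentiation, at -0.52 ± 0.15 and the growth plate signal Ihh at 0.51 ± 0.22. Col10a1, the collagen of hypertrophic chondrocytes, had the lowest fitted value of all rows, -2.12 ± 1.25, on readings that did not agree in sign: -0.78 on the direct pairing, -7.42 through pair-fed fracture and 0.51 through alcohol-fed no fracture. For 6 osteoclast genes the median was 0.03 with 0 marked, and the protease Ctsk was at -1.09 ± 0.54, with -3.18 on the path through pair-fed fracture against 0.42 on the other. The lysosomal chloride transporter Clcn7 was at 0.60 ± 0.24 and the receptor Oscar at 0.06 ± 0.15.

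Early callus matrix and proteases had a median of 0.09, with 14 of 22 positive. Asporin Aspn, a small proteoglycan that binds TGF-beta, was marked as positive at 1.11 ± 0.22, and its largest step was 1.10 for fracture on the pair-fed diet. Col6a3, a chain of type VI collagen, was at 0.96 ± 0.30 and biglycan Bgn at 0.49 ± 0.16. In the BMP and TGF-beta list, with a median of 0.02, 1 of 22 members was marked, Smad5, a mediator of BMP signals. It was at 1.08 ± 0.28, the BMP target Id2 at 0.37 ± 0.18 and the receptor Acvr1 at 0.26 ± 0.15. Wnt genes had a median of -0.03 and 0 of 16 marked, with the secreted modulator Dkk3 at -0.59 ± 0.17, the antagonist Sfrp1 at 0.44 ± 0.23 and the receptor Fzd2 at 0.30 ± 0.16.

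Vessel genes, with hypoxia genes, had a median of -0.12 and no marked member among 14, of which 5 lay above 0. The angiopoietin receptor Tek was at -0.72 ± 0.31 and endomucin Emcn at -0.40 ± 0.20. Members above 0 included Tie1 at 0.21 ± 0.29, Adm at 0.20 ± 0.16 and Angpt2 at 0.17 ± 0.16. On leaving out 1 pairing Tek ran from -1.19 to -0.34 and Emcn from -0.65 to -0.21. Of 7 smooth muscle and pericyte genes, the actin-binding Tagln was marked as positive at 1.31 ± 0.27 and the leiomodin Lmod1 as negative at -0.81 ± 0.17, and Mcam was at 0.27 ± 0.17. Adipocyte genes had a median of 0.19, and of 11 members 1 was marked, the transcription factor Cebpa at 1.18 ± 0.31. The fatty acid carrier Fabp4 was at -0.63 ± 0.19 and perilipin Plin1 at 0.47 ± 0.23, with 0.26 to 0.85 for Plin1 when 1 pairing was left out.

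Ethanol metabolism and oxidative stress genes, the list nearest to the diet itself, had a median of 0.10 and no marked member among 19. Retinal dehydrogenase Aldh1a1 was at 0.66 ± 0.20, the extracellular superoxide dismutase Sod3 at 0.78 ± 0.24 and the alcohol dehydrogenase Adh7 at -0.54 ± 0.17. Interferon response genes had a median of -0.07, with 1 of 15 marked, the peptide transporter Tap1 at -0.67 ± 0.18. The GTPase genes followed on both sides, Gbp2 at -0.52 ± 0.15 and Mx1 at 0.66 ± 0.20. In the circadian list, whose median was -0.09, 2 of 14 members were marked, the repressor Cry1 at 0.98 ± 0.20 and, opposite to it, Dbp, and the activator Npas2 was at -0.30 ± 0.17. Immediate early genes had a median of 0.07 and 1 of 16 marked, the small GTPase Rhob at 1.97 ± 0.42. The AP-1 subunit Junb was at 0.52 ± 0.17 and Ier2 at -0.45 ± 0.16.

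**Figure D4:**
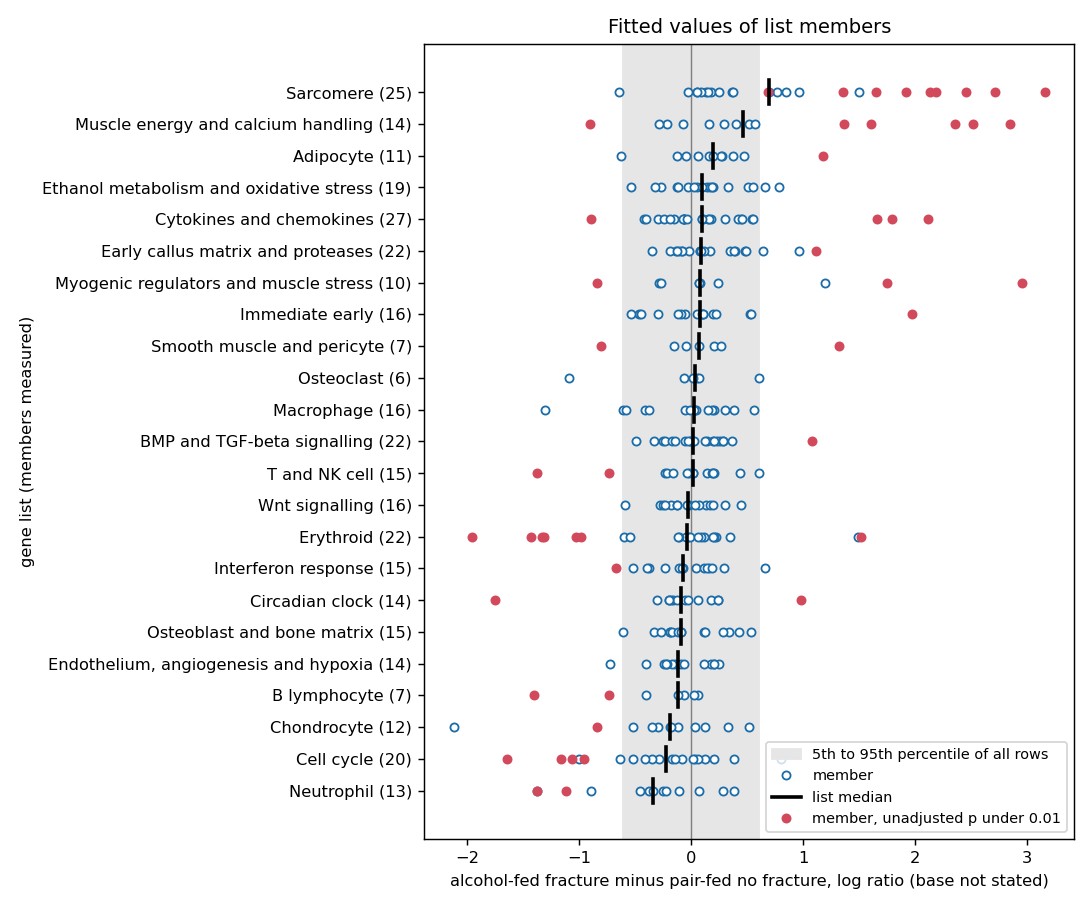
Fitted log ratios of alcohol-fed fracture minus pair-fed no fracture (x axis) for the measured members of 23 gene lists (y axis), with red points for members with an unadjusted limma p under 0.01, black bars for list medians and a grey band from the 5th to the 95th percentile of all rows (-0.61 to 0.60). Sarcomere genes have the highest median at 0.69 and neutrophil genes the lowest at -0.35.

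Of 9 genes followed because of their place in fracture repair or ethanol oxidation, none passed, with limma adjusted p from 0.428 to 0.891. The growth factor Bmp2 was at -0.26 ± 0.15 and the angiogenic Vegfa at -0.24 ± 0.15, each negative on the direct pairing and both paths. The cytokines Il6, Tnf and Il1b were at -0.16 ± 0.15, -0.06 ± 0.15 and 0.15 ± 0.17, and the osteoblast genes Runx2 and Bglap at -0.09 ± 0.16 and 0.42 ± 0.27. Bglap, osteocalcin, gave 0.96 on the direct pairing against -0.29 and 0.06 on the paths. The mitochondrial acetaldehyde dehydrogenase Aldh2 was at -0.27 ± 0.22, with -0.65 on the direct pairing and 0.35 on the path through alcohol-fed no fracture. A miss of the threshold does not show that these genes were equal in both groups.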

How the data were processed

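Per the labels' protocols, the fracture region was frozen and milled, RNA was isolated with Trizol, amplified and coupled to Cy3 or Cy5, and each pairing has a dye swap, 12 arrays in all. The authors deposited 1 log ratio per probe and pairing. What log base, numerator, scanner, normalization and filters they used is not stated in the labels or the file header. The deposited columns have means of 0 and no missing values.

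Of 26503 probes, 22 control spots were left out. The platform annotation gives 1 symbol to 15521 of 26481 probes and several to 0. Of these symbols 11824 were current, 3638 were updated by a synonym in the GRCr8 RefSeq table and 59 were kept. Probes of a gene were averaged (2219 genes), leaving 23549 rows.

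Limma 3.58.1 (R 4.3.3) was fitted to 5 pairings, with +1 and -1 for the first-named and second-named group, 2 residual and 4.25 prior degrees of freedom, two-sided tests and Benjamini-Hochberg adjustment over all rows (threshold 0.05). In 1 simulated set of 23549 rows for this comparison, 4% of 100 rows changed by 1 unit and 84% of 100 changed by 2 units were recovered, and 7 unchanged rows of that set were called. In a set with no effect 0 rows were called. The simulated noise was independent between rows and equally wide in all 5 columns, with the directions of the titles. The deposited columns differ in width and their directions are not settled, so these counts give no false call rate for them. Precision is limited by the number of arrays.

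Named were, per direction, the 10 largest fitted values with 1 symbol (provisional locus symbols skipped) and the same sign on all 3 readings that passed, filled up with an unadjusted p under 0.01, up to 3 members of each of 23 lists with the smallest p (467 listed genes, 358 measured), and 9 fixed genes. Members, lists and tests were chosen with earlier results of these data known. Other members are named as examples after their values were seen (Ank1, Eno3, Actn2, Il18, Tnnt1, Myh7, Tnni1, Mybpc1, Myh3, Myl1, Urod, Fech, Epb42, Klf1, Gata1 and Col10a1). So were Tnnc1, Tnnc2, Myl3, Myh1, Top2a, Mcm2, Mcm4, Mcm5 and Mcm6. The same holds for C1qa, C1qc, Cd3d, Cd3e, Gzma, Gzmb, Gzmk, Ms4a1, Blk, Rag2, Cd74, Tie1, Angpt2, Adm and Ccl2. Alternatives covered the pairings fitted, scale, centring, variance, path weights, rows, column directions and leaving out pairings. No batch is given in the sources used here.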

Additional observations from a re-analysis of the deposited data

How the results depend on the processing

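The number of rows called, 7, was 0 with all 6 pairings and the signs of the titles, 14 with the sixth column turned, 25 with pairings scaled to 1 spread, 0 with ordinary variances, 2 with equal weight for the 3 readings, 1 over rows with a symbol only, 3 with 1 row per probe, and 8 with columns centred on the median. With 1 column turned it was 4 for the column of fracture on the pair-fed diet and 0 for each of the other 4, and 0 with the 2 columns turned that left the least unexplained, a setting chosen after the data were seen. Leaving out 1 pairing gave 0 to 645. Departures from the sum, 0 in the report, were 24 with those 2 columns turned (22 above and 2 below the sum) and 0 to 392 on leaving out 1 pairing, the upper value without the direct pairing. Uchl1 stayed positive under every alternative run, while Myl11 changed sign with the direct pairing turned. The cause of these changes was not tested.

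With the direct pairing turned, signs changed to -0.0016 for Aldh1a1, -0.02 for Mx1, -0.04 for Acvr1, -0.05 for Oscar, -0.10 for Junb, -0.14 for Myl11, -0.17 for Aspn, -0.21 for Mcam, -0.24 for Ihh, -0.38 for Tagln and -0.54 for Bglap, and to 0.02 for Ankrd2, Runx2 and Sox6, 0.03 for Dkk3, 0.04 for Gbp2 and Matn1, 0.05 for Cdc20, 0.06 for Adh7 and Cd163, 0.08 for Cd3g, 0.09 for Slc25a37, 0.10 for Npas2 and Tnf, 0.28 for Chmp5 and 0.39 for Aldh2. With the column of fracture on the alcohol diet turned they changed to -0.0015 for Acvr1, -0.05 for Cd14 and Fzd2, -0.07 for Oscar, -0.12 for Il1b, -0.14 for Col6a3 and Sfrp1, 0.06 for Il6, 0.15 for Tek and 0.20 for Cd22. With the column of alcohol in fractured rats turned they changed to -0.01 for Mx1, -0.04 for Plin1, 0.005 for Prf1, 0.01 for Il6 and Runx2 and 0.50 for Ctsk. With 2 columns turned Emcn was at 0.01 and Tnf at 0.06, and with the column of alcohol in unfractured rats turned Tnf was at 0.05. Leaving out 1 pairing moved Aldh2 between -0.47 and 0.12, Bglap between -0.11 and 0.66 and Tnf between -0.11 and 0.04, which changed their signs. It moved 27 of the 93 named genes by over 1.5 times, these 3 included, among them Capn9 (-2.50 to -1.22) and Or4k52 (1.81 to 4.00) of the 20 leading genes. Medians of the sarcomere list ran from 0.12 to 0.91, of the cell cycle list from -0.34 to -0.02 and of the neutrophil list from -0.60 to -0.15 over 19 alternatives, while the erythroid median, -0.04, changed sign in 4 of them. Each ratio already pairs 2 samples on the same arrays. No further pairing across columns was possible because every numbered sample served in a single pairing. Dim probes could not be left out, since spot signals are not used here.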
